A study of Mus musculus with 3 samples.

Results

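The Hox genes of the 4 mouse clusters (Hoxa, Hoxb, Hoxc and Hoxd) were examined in whole embryos at 8.5 days post coitum. Members were all probe sets whose only gene symbol was Hoxa, Hoxb, Hoxc or Hoxd followed by a number. This gave 48 probe sets for 33 genes, out of 18193 genes named on the array and 39 such Hox genes in the mouse gene table. The other 6 were not analysed here.

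RNA was measured on 3 single-channel Affymetrix arrays, 1 pool of litter mates of both sexes per array. Normal RNA came from 6 embryos of strain C57Bl/6J, pooled on 1 array and described in the labels as not methylation mutants. The mutant group was 2 arrays, called biological replicates, from 8 (mutant array 1) and 6 (mutant array 2) pooled embryos of genotype Dnmt3l-/+, on a C57Bl/6J background. Their mothers were Dnmt3l-/- and their fathers wildtype, so that maternal methylation marks were not set, and the embryos themselves kept a wildtype paternal allele. The question was which Hox transcripts differ between such embryos and normal ones. The Dnmt3l probe set read 12.2 on the normal array against 183 and 14.3, below the filter, and does not check the labels, since the embryos carry a wildtype allele. As the normal group was a single array, the only measured spread is that between the mutant arrays.

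Hox genes encode homeodomain transcription factors that give cells their position along the head-to-tail axis. Within a cluster the genes lie in the order in which they are switched on in time and in space, those with low numbers at the 3' end acting first and most anteriorly. Genes of the same number in different clusters are paralogues. At the stage sampled, with the neural tube closing and somites forming, the 3' and central genes are normally active, and the genes of the 5' end are mostly still to come.

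Promoter sequence is shown for 3 members on which the results below turn. They are Hoxb1, which had the lowest log2 ratio of the 26 genes above the filter described below, and the paralogues Hoxa9 and Hoxd9. Each sequence covers 250 bases before to 50 after the start of transcription, 5' to 3' on the gene's strand, from RefSeq on build GRCm38.p6. Hoxb1 is chr11:96365508-96365807 (+ strand), Hoxa9 is chr6:52227321-52227620 (- strand) and Hoxd9 is chr2:74697513-74697812 (+ strand). Capitals mark matches on either strand to TGATNNAT, the sequence bound jointly by Pbx and Hox proteins, or to TTTATG, a form of the site bound by caudal (Cdx) proteins.
Hoxb1: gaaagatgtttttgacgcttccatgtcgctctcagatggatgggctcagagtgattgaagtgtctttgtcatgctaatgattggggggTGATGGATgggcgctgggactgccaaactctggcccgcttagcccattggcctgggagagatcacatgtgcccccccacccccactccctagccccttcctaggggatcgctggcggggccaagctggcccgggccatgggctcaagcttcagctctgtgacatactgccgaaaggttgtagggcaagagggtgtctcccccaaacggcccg
Hoxa9: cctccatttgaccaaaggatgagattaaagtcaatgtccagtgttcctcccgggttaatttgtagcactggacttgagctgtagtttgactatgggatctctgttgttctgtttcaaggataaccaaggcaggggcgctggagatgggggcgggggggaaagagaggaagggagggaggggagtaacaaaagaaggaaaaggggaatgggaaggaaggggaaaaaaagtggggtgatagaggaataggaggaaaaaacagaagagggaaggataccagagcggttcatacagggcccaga
Hoxd9: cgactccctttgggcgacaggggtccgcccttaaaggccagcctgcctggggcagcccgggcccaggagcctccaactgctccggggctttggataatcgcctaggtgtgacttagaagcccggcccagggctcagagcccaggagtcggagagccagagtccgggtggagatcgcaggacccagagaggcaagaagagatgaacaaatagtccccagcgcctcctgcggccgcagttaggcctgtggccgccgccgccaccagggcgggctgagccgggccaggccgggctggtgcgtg
The Hoxb1 window held 1 match to TGATNNAT, and its upstream part is known as the element through which Hoxb1 maintains its own transcription in the hindbrain. The Hoxa9 and Hoxd9 windows held neither motif. Of 21 windows found for 19 member genes, 3 held TGATNNAT (14.3%, against 8.8% of all 32851 windows in the table) and 3 held TTTATG (14.3% against 11.9%), with no member window holding both. The member windows had a median of 15 CG dinucleotides, against 7 over all windows. A match describes letters only.

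The Hox genes read lower in the mutant pools as a set of values, but no single one passed the test. Of 33 genes, 26 had a probe set above the filter on dim signals, and each is represented below by its brightest such probe set. Lower signals than normal were found in both mutant arrays for 18 of the 26, higher signals in both for 5 (Hoxa5, Hoxb5, Hoxb6, Hoxb7 and Hoxd13), and 3 (Hoxb2, Hoxc10 and Hoxd8) lay on both sides. Over all 12913 named genes above the filter, 39.1% were lower in both arrays and 36.5% higher in both. Their median log2 ratio of mutant over normal was -0.46 (-0.57 in mutant array 1 and -0.41 in mutant array 2), against -0.02 over all named genes, of which 11.9% were at or below -0.46. Without the filter, 20 of all 33 genes were lower in both arrays (37.4% of all named genes) and the median was -0.28. Ratios are differences of log2(signal + 31.92), which understates the change of dim genes.

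Limma, fitted over all 27022 probe sets kept, called 0 of the 34 Hox probe sets at an adjusted p under 0.05, where it called 0.577% of all. At an unadjusted p under 0.05, 8 Hox probe sets were lower and 0 higher, against 6.86% and 6.70% of all probe sets. The lowest adjusted p of any member was 0.195 (Hoxa9). The ratio to normal was larger than the gap between the mutant arrays for 17 of 26 genes, against 56.8% of all named genes. None of the 26 had a decrease of 2-fold or more on each mutant array, which 0.635% of named genes were. The fit takes the normal array to vary as the mutant arrays do.

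**Figure D1:**
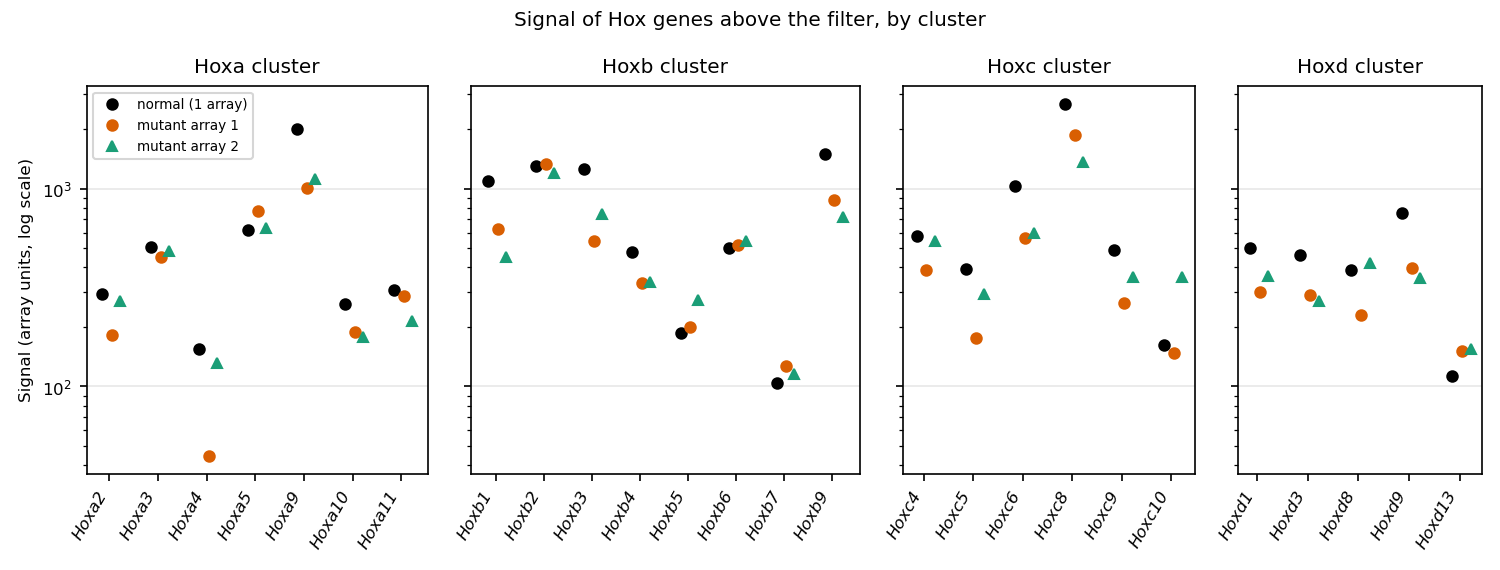
Signal of the 26 Hox genes above the filter (array units, log axis), 1 panel per cluster, genes in order of paralogue number; black circles are the normal array, orange circles mutant array 1 and green triangles mutant array 2. Both mutant points lie below the black point for 18 genes, among them Hoxb1, Hoxb3, Hoxc6, Hoxa9, Hoxb9 and Hoxd9. Heights of different genes come from different probes and are not comparable.

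The genes of the 3' end, groups 1 to 3 (7 genes), had a median of -0.57 on the log2 scale (-0.62 and -0.45 in mutant arrays 1 and 2), and 6 of the 7 were lower in both arrays. Hoxb1, which sets the identity of the fourth hindbrain segment, read 1090.2 on the normal array, 629 on mutant array 1 and 454 on mutant array 2. Both mutant values lay well under the normal one, and array 2 was the lower. The log2 ratio was -0.99 (SE 0.29, adjusted p = 0.250), a 1.98-fold lower level on that scale. Its paralogue Hoxd1 read 503, 299.9 and 360.2 in the same order, a log2 ratio of -0.57 (SE 0.28, adjusted p = 0.458). Both group 1 genes were therefore lower on each mutant array.

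Group 3 genes pattern the hindbrain and the pharyngeal arches. Hoxb3 read 1254 on the normal array against 544 and 749, a log2 ratio of -0.94 (SE 0.28, adjusted p = 0.260). A second Hoxb3 probe set gave -0.86 (SE 0.28), close to the first. Hoxd3 read 463 against 289 and 270.3, with the mutant arrays nearly alike (log2 ratio -0.67, SE 0.27, adjusted p = 0.378).

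Hoxa3, which is needed for thymus and parathyroid development, differed from its paralogues in the size of its ratio, though that difference was not tested. Its brightest probe set read 508 against 449 and 483, a log2 ratio of -0.12 (SE 0.26, adjusted p = 0.879). Its other probe sets above the filter gave -0.36 and 0.30, so they disagreed in sign. In group 2, Hoxb2, a hindbrain gene, read 1301 against 1328 and 1204, a log2 ratio of -0.04 (SE 0.22, adjusted p = 0.955), whose sign turned under median centring (0.03). Hoxa2, which specifies the second pharyngeal arch, read 295 against 182 and 269, so that only mutant array 1 stood clearly apart (log2 ratio -0.37, SE 0.34, adjusted p = 0.694).

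The central genes, groups 4 to 8, were the most mixed. Their median was -0.31 over 11 genes, but the mutant arrays gave -0.52 and -0.09, so most of it came from array 1. Both arrays were lower for 6 genes and higher for 4. Group 4 was lower in both arrays in each of the 3 genes measured. Hoxb4, used to mark the posterior hindbrain and known for its action in blood progenitors, read 480.2 against 335 and 337 (log2 ratio -0.48, SE 0.27, adjusted p = 0.507), and a dimmer probe set gave -0.66. Hoxa4 read 155 against 44.3 and 132, so its ratio of -0.74 (SE 0.54, adjusted p = 0.608) rested on mutant array 1. Hoxc4 read 578 against 389.8 and 543 (log2 ratio -0.31, SE 0.30, adjusted p = 0.710), again with array 1 the lower.

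Groups 5 to 7 split by cluster. In the Hoxb cluster these genes were not lower in either mutant array. Hoxb5, a gene of vagal neural crest and lung, read 186 against 199 and 273 (log2 ratio 0.28, SE 0.33, adjusted p = 0.761). Hoxb6, a marker of lateral plate mesoderm, read 504 against 518 and 543 (0.07, SE 0.25, adjusted p = 0.929). Hoxb7 read 104 against 127 and 116 (0.17, SE 0.34, adjusted p = 0.868). None of these 3 differed from normal by more than its standard error.

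In the Hoxc cluster the genes measured in these groups, Hoxc5 and Hoxc6, read lower. Hoxc5 read 394 against 175 and 292 (log2 ratio -0.72, SE 0.37, adjusted p = 0.479), with array 1 the lower. Hoxc6, a marker of the thoracic region, read 1032 against 563 and 598, which was alike in both mutant arrays (log2 ratio -0.80, SE 0.24, adjusted p = 0.260). A dimmer Hoxc6 probe set gave -0.88 (SE 0.37). Whether Hoxc and Hoxb genes differed was not tested, as paralogues are read by different probes.

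Hoxa5, which acts in lung and the cervical skeleton, had probe sets that disagreed. The brighter read 618 against 768 and 634 (log2 ratio 0.17, SE 0.26, adjusted p = 0.829), and the other read lower in both mutant arrays (-0.37, SE 0.28). In group 8, Hoxc8 of the thoracic skeleton read 2691 against 1870.5 and 1358 (log2 ratio -0.74, SE 0.26, adjusted p = 0.318). Both mutant values were well under normal. Hoxd8 read 386 against 230.2 and 421, so the mutant arrays lay on either side of normal (-0.28, SE 0.40, adjusted p = 0.811), and its second probe set did the same.

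**Figure D2:**
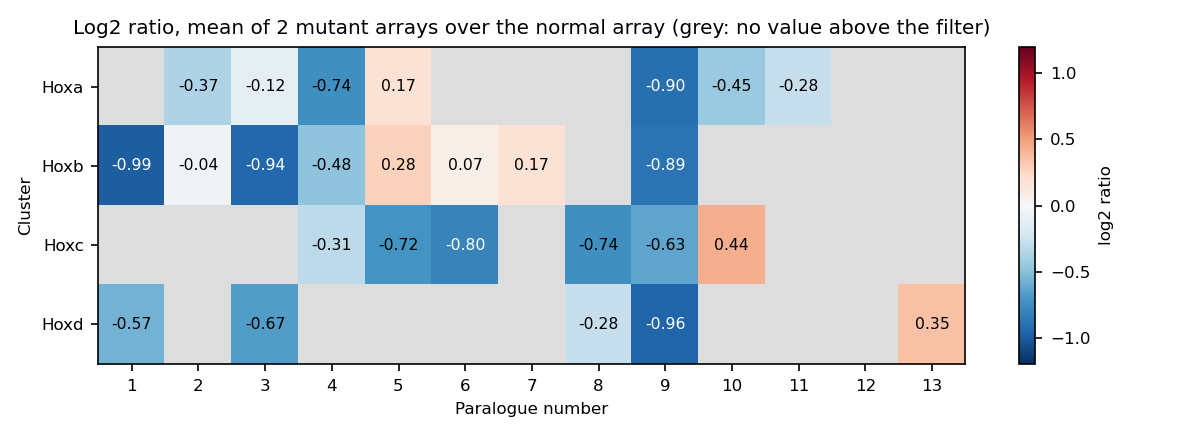
Log2 ratio of the mean of 2 mutant arrays over the normal array for each Hox gene, clusters in rows and paralogue numbers in columns. Blue is lower, red is higher and grey marks positions without a value above the filter. Grey covers genes below the filter, genes not analysed and positions where the cluster has no gene (the gene table lists 39 Hox genes). The column of group 9 is blue in all 4 clusters (-0.63 to -0.96), and Hoxb5 to Hoxb7 are pale red (0.07 to 0.28).

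Group 9 had a median of -0.89 (-0.85 and -0.93 in mutant arrays 1 and 2), and its 4 genes were lower in both arrays. These genes pattern the thoracic to lumbar trunk and, in the lateral plate, help to place the forelimb. Hoxa9 read 2004 on the normal array against 1010.3 and 1113 (-0.90, SE 0.22, adjusted p = 0.195). Hoxb9 read 1504 against 879.5 and 721 (-0.89, SE 0.25, adjusted p = 0.234). Hoxd9 read 757 against 397 and 353 (-0.96, SE 0.26, adjusted p = 0.230). In these 3 genes the mutant arrays lay close to each other and both well below normal. Hoxc9 read 491 against 263 and 359 (-0.63, SE 0.31, adjusted p = 0.455), lower in both arrays with more spread between them. In each of the 4 the ratio to normal exceeded the gap between mutant arrays. A dimmer probe set of Hoxa9 gave 481 for normal embryos and 483 on mutant array 1, and was lower on array 2 alone (-0.33 over both arrays, SE 0.36).

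Over groups 9 to 13 the median was -0.54 over 8 genes (-0.58 and -0.48), while without the filter it was -0.18, since 6 further genes at dim signals then entered. Hoxa10, a gene of the lumbar region and the uterus, read 260.0 against 188 and 177 (log2 ratio -0.45, SE 0.30, adjusted p = 0.581). Hoxa11, of the limb and the uterus, read 309 against 286 and 214 (-0.28, SE 0.31, adjusted p = 0.746). Hoxc10 read 162, 147 and 358, so its ratio of 0.44 (SE 0.51, adjusted p = 0.760) came from mutant array 2. Hoxd13, a gene of digits and the hindgut end, read 113 against 151 and 155 (0.35, SE 0.33, adjusted p = 0.694). A dimmer Hoxd13 probe set stayed between 5.54 and 12.1 on all arrays.

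The 7 genes without a probe set above the filter were Hoxa7, Hoxa13, Hoxb13, Hoxc13, Hoxd10, Hoxd11 and Hoxd12. All but Hoxa7 belong to groups 10 to 13. Hoxb13, the gene of the tail tip, was the dimmest, between 2.23 and 4.36 over the arrays. Hoxd10 lay between 46.8 and 123, and Hoxa7 read between 12.4 and 140.4, its highest value on mutant array 1. The dimmest member probe set inside the filter was that of Hoxb7, and the brightest outside it was another one of Hoxc6, which read 147 against 16.3 and 96.8. Members below the filter were not tested.

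By cluster, the medians were -0.37 for Hoxa (7 genes, -0.41 and -0.19 in mutant arrays 1 and 2), -0.26 for Hoxb (8 genes, -0.23 and -0.29), -0.67 for Hoxc (6 genes, -0.68 and -0.41) and -0.57 for Hoxd (5 genes, -0.67 and -0.45). Lower in both arrays were 6 of 7 Hoxa, 4 of 8 Hoxb, 5 of 6 Hoxc and 3 of 5 Hoxd genes. The Hoxb cluster alternated along its length, with Hoxb1, Hoxb3, Hoxb4 and Hoxb9 lower in both arrays and Hoxb2, Hoxb5, Hoxb6 and Hoxb7 at mean ratios within 0.28 of normal. The order of the cluster medians was not tested, and they rest on different sets of paralogues.

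Of the noncoding transcripts that lie inside the clusters, 3 had a probe set above the filter, and the brightest of each had a lower log2 ratio than the Hox genes it overlaps. Hoxb5os, which overlaps Hoxb5 and Hoxb6 in the gene table, read 3911 on the normal array against 1191 and 1398, a log2 ratio of -1.58 (SE 0.21, adjusted p = 0.0610). Both mutant arrays were about alike, while Hoxb5 and Hoxb6 themselves had ratios of 0.28 and 0.07. Its decrease was 2-fold or more on each mutant array, which held for no Hox gene. The brighter Hoxd3os1 probe set, described next, also fell 2-fold or more on each (-1.81 and -1.08).

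Hoxd3os1, which overlaps Hoxd3, read 1293 against 346 and 593 (-1.45, SE 0.36, adjusted p = 0.203), beside -0.67 for Hoxd3. A dimmer Hoxd3os1 probe set read 107 against 93.3 and 94.5 (-0.14, SE 0.35) and did not share that size. Gm15050, which overlaps Hoxa3, read 411 against 217 and 254 (-0.73, SE 0.29, adjusted p = 0.367), beside -0.12 for Hoxa3. A pair of others lay below the filter. Hoxa11os read 99.8 against 45.9 and 70.6 in its brighter probe set. Gm38462, which overlaps Hoxd3 and Hoxd8, read 81.6 against 48.1 and 44.8 (-0.53), a ratio between those of Hoxd3 (-0.67) and Hoxd8 (-0.28). None of the noncoding transcripts above the filter passed the test, and those below it were not tested. The differences between each noncoding transcript and its Hox gene were not tested, and the strand that each probe set reads was not checked here, so reads of overlapping transcripts cannot be told apart.

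**Figure D3:**
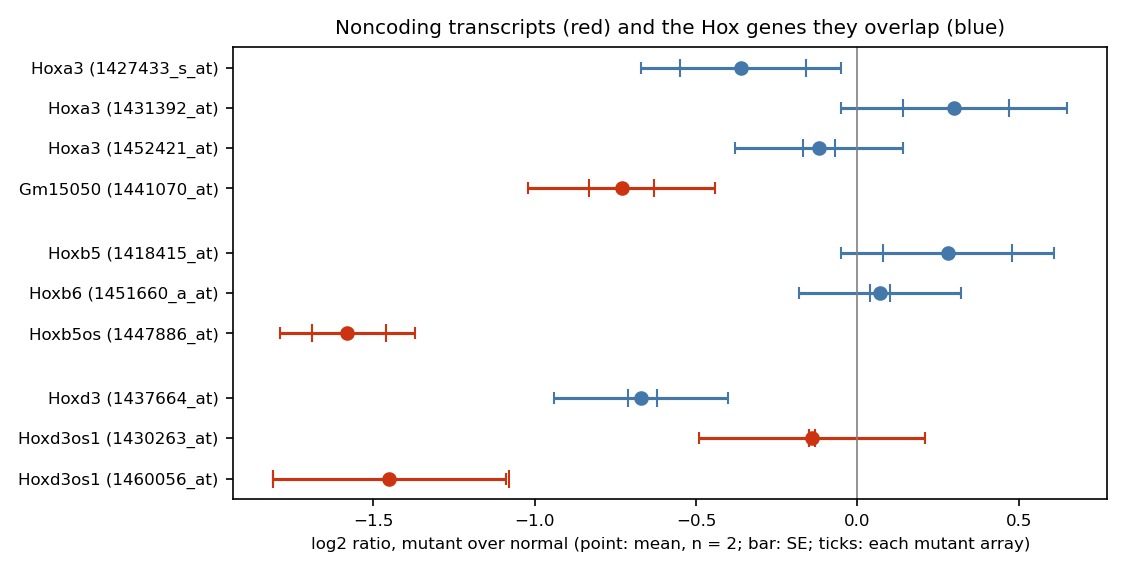
Log2 ratio of mutant over normal for noncoding transcripts (red) and the Hox genes they overlap (blue), 1 line per probe set above the filter; points are means of 2 mutant arrays, bars are SE from limma and short ticks are the mutant arrays. Hoxb5os lies at -1.58, while Hoxb5 and Hoxb6 lie at 0.28 and 0.07.

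Hox proteins bind DNA with cofactors of the TALE homeodomain family. Of 8 TALE genes measured, 7 were above the filter and 6 of these were lower in both arrays, with a median of -0.49 (-0.71 and -0.43) and 0 called in either direction (0.759% of all named genes were). Meis2 read 3264 against 1944 and 2149 (-0.67, SE 0.20, adjusted p = 0.249) and Meis3 read 621 against 359 and 371 (-0.72, SE 0.26, adjusted p = 0.333). Pbx3 (-0.63, SE 0.25) and Pknox2 (-0.49, SE 0.22) were lower in both arrays too, while Pbx2 was at -0.05 and Pknox1 at -0.10.

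A list of genes that act on the clusters in the tailbud or in single hindbrain segments had a median of -0.75 over 9 genes. All 9 were lower in both arrays, with 0 called. The list also held the homeobox genes Evx1 (-1.28) and Evx2 (-0.41), whose action on the clusters is not shown here. The arrays differed in size, with -0.54 in mutant array 1 and -1.29 in mutant array 2. Cdx4, a caudal factor that acts directly on Hox genes, read 1879.5 against 616 and 444 (-1.78, SE 0.28, adjusted p = 0.0896). Fgf8, a growth factor of the tailbud, read 542 against 189 and 107 (-1.71, SE 0.38, adjusted p = 0.172). Cdx1 read 466, 298 and 24.8, so its ratio of -1.86 (SE 0.99, adjusted p = 0.490) rested largely on mutant array 2. Gdf11, which times the trunk-to-tail transition, gave -0.64 (SE 0.33, adjusted p = 0.481).

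Retinoic acid acts on the 3' Hox genes through its nuclear receptors. Of 12 pathway genes above the filter 7 were lower and 2 higher in both arrays, with a median of -0.30 (-0.38 and -0.28) and 0 called. Aldh1a2, the enzyme that makes retinoic acid in the trunk, read 2305 against 1449.7 and 1173 (-0.81, SE 0.23, adjusted p = 0.244). The retinoic acid binding proteins Crabp1 (-0.89, SE 0.31) and Crabp2 (-0.82, SE 0.28) and the receptor Rxrb (-0.58, SE 0.23) were lower in both arrays as well.

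The chromatin regulators that keep Hox clusters silent or active lay nearer to normal. The Polycomb list, whose proteins hold Hox genes off, had a median of 0.03 over 19 genes (-0.06 and -0.02), with 8 lower and 7 higher in both arrays and 0 called. Cbx2 (-0.60, SE 0.20), Phc1 (-0.54, SE 0.21) and Phc2 (-0.50, SE 0.18) were lower in both, and Cbx7 (0.87, SE 0.27) was higher in both. The trithorax list, whose proteins keep Hox genes on, had a median of -0.23 over 13 genes (-0.13 and -0.27), with 8 lower and 2 higher in both and 0 called. Psip1 (-0.54, SE 0.18), Kdm6b (-0.55, SE 0.25), Brpf1 (-0.49, SE 0.30) and Dpy30 (-0.44, SE 0.19) were lower in both arrays, and none passed.

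**Figure D4:**
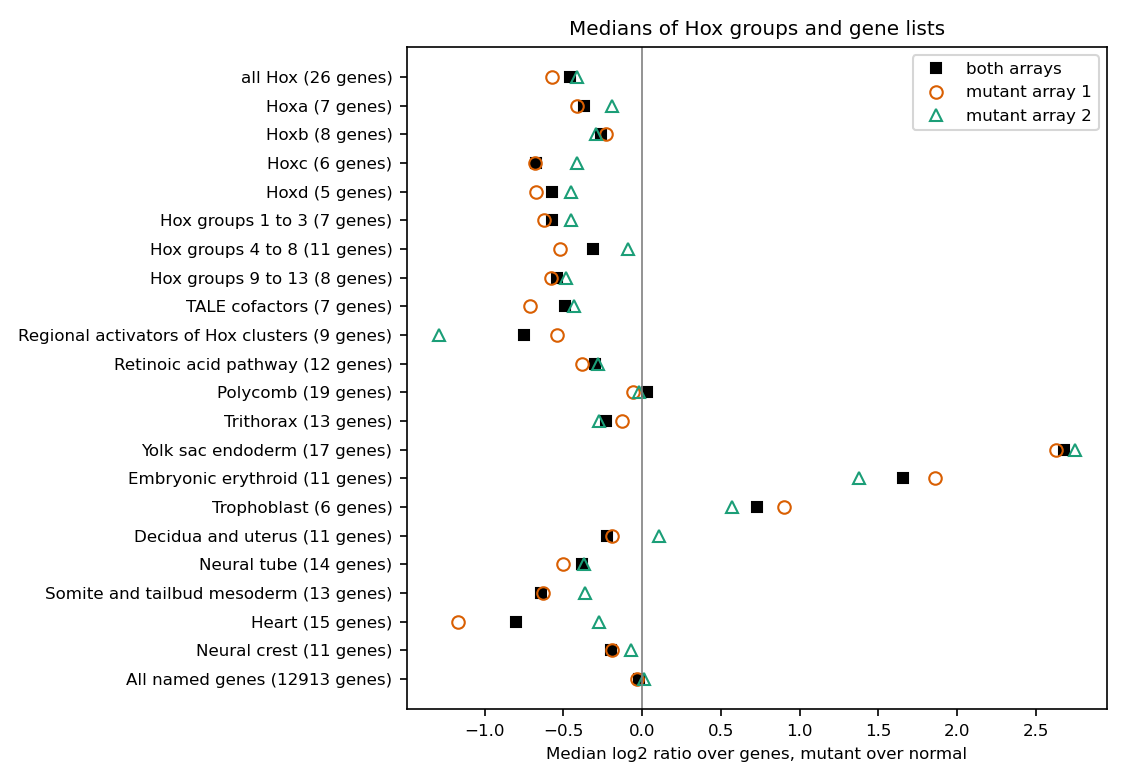
Median log2 ratio of mutant over normal for Hox groups, related gene lists and tissue lists, with the number of genes above the filter in brackets; black squares are both mutant arrays together, open circles mutant array 1 and open triangles mutant array 2. The Hox medians lie between -0.26 and -0.67, and yolk sac endoderm lies at 2.68.

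Marker lists of yolk sac endoderm and embryonic erythroid cells had medians above normal, opposite to the Hox genes, and trophoblast markers were mixed. Among 17 yolk sac endoderm markers kept, 16 read higher on each mutant array and 15 rose past the test (0.728% of named genes did), with a median log2 ratio of 2.68 and a summed signal of 21338 on the normal array against 116968 and 124601. The calls included Apob (3.85, SE 0.28, adjusted p = 0.0165) and Apoa4 (3.79, SE 0.40, adjusted p = 0.0352), which code for apolipoproteins. Embryonic erythroid markers were higher in both arrays in 11 of 11 genes (median 1.66, 2 called, summed signal 34732 against 70574 and 71107), among them Slc4a1 (2.43, SE 0.30) and Hemgn (2.21, SE 0.29). Trophoblast markers had a median of 0.73 over 6 genes (3 higher and 2 lower in both arrays), with Esx1 (2.25) and Phlda2 (-2.93) at the ends. Their summed signal was 5541 against 5502 and 4792. Phlda2 alone made up 3735 of it on the normal array, against 642 and 330.1, so the sum hides the rise of other markers. No marker on these lists read 0 on any array. All calls of tissue markers given here rest on the filter and the variance trend. Without the filter limma called 0 probe sets of the whole array (2451 lower and 2423 higher at an unadjusted p under 0.05), and without the trend it also called 0 (1814 and 1641).

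Markers of tissues of the embryo proper had medians below normal, as the Hox genes did, with 0 called on the 4 lists that follow. Somite and tailbud markers had a median of -0.64 over 13 genes (9 lower in both arrays, 1 higher, summed signal 8259.7 against 4759 and 5973), with Tbx6 at -1.11 and Hes7 at -2.03. Neural tube markers had a median of -0.38 over 14 genes (11 lower, 1 higher, summed signal 11458 against 6669 and 8802), with Otx2 at -1.34 and Sox1 at -1.17. Otx2 marks the forebrain and midbrain, where Hox genes are normally silent. Neural crest markers were mixed, with a median of -0.20 over 11 genes (-0.19 and -0.07 in mutant arrays 1 and 2, 6 lower and 2 higher in both). Their summed signal was 13788 against 9695 and 14072, so mutant array 2 was not lower. Crabp1, also on the retinoic acid list, was at -0.89 and Sox10 at -0.73, while Ednrb (0.72) and Snai2 (0.51) were higher in both arrays. Heart markers had a median of -0.80 over 15 genes (12 lower, 2 higher), with -1.17 in mutant array 1 and -0.27 in mutant array 2, and with Tbx5 at -1.45 and Tnnt2 at -1.10.

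Decidua and uterus markers, of the maternal tissue in which Hoxa10 and Hoxa11 are also active, had a median of -0.22 over 11 genes (5 lower and 4 higher in both arrays). The decidual gene Prl8a2 fell from 1376 to 91.2 and 111 (-3.41, SE 0.30, adjusted p = 0.0212), and Cebpb was at 1.59. The part of these tissues in the Hox values was not tested. In RNA from whole pools, fewer cells of a kind and less RNA per cell cannot be told apart.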

How the data were processed

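The authors deposited 1 intensity per probe set and array on a linear scale, made with GCOS and MAS5 per the submitters' processing notes, with versions and settings not given in the sources used here. The values had the same 2% trimmed mean (500) on the 3 arrays and medians of 143.6, 130 and 139.6, so each array was already scaled. With such scaling a gain of signal in a tissue can lower other readings, and its part in the Hox values was not tested. Of 45101 probe sets, 64 controls were left out, and names came from the platform annotation (34945 probe sets with 1 symbol, 932 with several, 9160 not listed). The gene table of GRCm38.p6 changed 0 symbols. A set of 3 probe sets that list several Hox symbols was not used.

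The value added before taking logs (pseudocount) was 31.92, from the arrays' 20th percentiles of signal (their median). The 40th percentile of log2(signal + 31.92), averaged with equal weight per group, was the lower limit and left 27022 probe sets. Limma 3.58.1 in R 4.3.3 (lmFit, eBayes with trend, two-sided, Benjamini-Hochberg over all kept probe sets, threshold 0.05) had 1 residual and 4.52 prior degrees of freedom. All adjusted p-values come from it. The script was tested on simulated data. Alternatives were other pseudocounts, filters and scalings, no trend, the mean of a gene's probe sets, and leaving out each mutant array. Every Hox gene above the filter was named. The related lists gave up to 4 genes and the tissue lists up to 2, ranked by whichever mutant array lay nearer to normal, and other members of a list were named after their values were seen. Members and lists were chosen with earlier results of these data known. The deposited values name no genome build, and the coordinates given are those of the RefSeq promoter table.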

Additional observations from a re-analysis of the deposited data

How the results depend on the processing

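No paired analysis was possible because the normal group is 1 array whose label carries no replicate number. The count of Hox probe sets called by limma was 0 under each pseudocount, filter, scaling and trend setting tried. Without the filter, and without the trend, limma called 0 probe sets of the whole array, so a Hox count of 0 there says nothing about stability. Of the 26 genes, 18 were lower in both mutant arrays. The count was 20 of 33 without the filter (37.4% of all named genes) and 17 of 21 with the stricter filter (38.9%). Under the other pseudocounts and scalings and without the trend it was between 17 and 19 of 26 (31.0% to 39.1%). The Hox median of -0.46 lay between -0.28 (no filter, 33 genes) and -0.57 (stricter filter). Without the filter the medians were -0.28 for Hox genes, -0.04 for Hoxb, -0.19 for Hoxd and -0.18 for groups 9 to 13. With the stricter filter Hoxb gave -0.68 and groups 9 to 13 gave -0.76, and with median centring they gave -0.18 and -0.46. In these filter settings a different number of genes entered. Median centring moved the median of all named genes from -0.02 to 0.06. Leaving out 1 mutant array in turn, which leaves no test, gave -0.53 to -0.41 for all Hox genes, -0.62 to -0.45 for groups 1 to 3, -0.50 to -0.09 for groups 4 to 8, -0.58 to -0.48 for groups 9 to 13, -0.29 to -0.19 for Hoxa, -0.29 to -0.23 for Hoxb, -0.68 to -0.41 for Hoxc and -0.67 to -0.45 for Hoxd. Without mutant array 2, Hoxa4 fell below the filter. The values of that setting for all Hox genes, groups 4 to 8 and Hoxa therefore rest on fewer genes, and the Hoxa range leaves out the main median of -0.37. The genes lower in the 1 array left were 19 of 26 without mutant array 1 (48.3% of all named genes) and 19 of 25 without mutant array 2 (52.1%). Signs turned for Hoxb2 (0.03 with median centring, 0.03 without mutant array 2 and -0.11 without mutant array 1), Hoxa5 (-0.10 as the mean of its probe sets), Hoxd8 (0.12 without mutant array 1) and Hoxc10 (-0.12 without mutant array 2 and 1.01 without mutant array 1). For Hoxb2 (-0.04 in the main fit), Hoxd8 and Hoxc10 the mutant arrays lay on both sides of normal, so each sign rests on 1 array. For Hoxa5 it rests on 1 probe set. With 1 normal array the spread among normal pools is not measured.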

Other observations

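Genes next to the clusters were read as well, taking the nearest measured gene beside a cluster, and tested by limma. Evx1os, an antisense transcript beyond Hoxa13, read 403 on the normal array against 371 and 179 on the mutant arrays (log2 ratio -0.58, SE 0.44), with only mutant array 2 far from normal. Ttll6, a tubulin glutamylase gene beyond Hoxb13, read 63.4 against 174 and 165, a log2 ratio of 1.08 (SE 0.33, adjusted p = 0.269), so both mutant arrays were higher. Evx2, a homeobox gene beside Hoxd13, gave -0.41 (SE 0.36). Calcoco1 (0.03) and Smug1 (0.31), on either side of the Hoxc cluster, and Mtx2 (0.11), beside Hoxd1, did not pass, and Skap1, beside Hoxb1, lay below the filter, between 72.3 and 89.6. None of the neighbouring genes above the filter passed the test, and Skap1 was not tested.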
